A study of Homo sapiens with 4 samples.

Results

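The BMP receptors, their Smads and their target genes were followed across 4 populations of H1299 cells, which derive from a human lung carcinoma, on 1 array each. The genes were the receptors BMPR1A, BMPR2 and ACVR1, the signal transducers SMAD1, SMAD4 and SMAD5, and the target genes ID1, ID2, ID3 and MSX2. These 10 genes, of 15240 named on the array, were chosen as members of the pathway, with earlier results of these data known. Each of the 14 probes (of 30968) that the platform annotation assigns to them was taken. The H1299 cells had been stably transfected with GFP under the promoter of Oct4 or of nestin. The Oct4/GFP (+) and Nestin/GFP (+) populations were sorted for high GFP. The remaining populations, Oct4/GFP (-) and Nestin/GFP (-), are labelled as negative for the reporter vectors. By the study's methods the transfected lines were sorted for high or for no GFP, but the array methods describe the sort of the high-GFP cells only. All were grown in DMEM with 5% serum, RNA was isolated after 24 h, and no BMP or inhibitor is named for them.

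BMPs bind a complex of type I receptors, such as BMPR1A (alk3) and ACVR1 (alk2), and the type II receptor BMPR2. The type I kinase phosphorylates SMAD1 and SMAD5, which join SMAD4, enter the nucleus and activate genes including ID1, ID2 and ID3. The Id proteins bind basic helix-loop-helix transcription factors and keep them from DNA, and are known for holding progenitor cells in an undifferentiated, dividing state.

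The values are linear intensities after subtraction of a background. An intensity counted as above background when it exceeded 3 noise SD of its array (noise SD being the root mean square of the values below 0). This limit was 15.3 for Oct4/GFP (+), 13.9 for Oct4/GFP (-), 22.7 for Nestin/GFP (+) and 20.3 for Nestin/GFP (-) cells. Quantile normalization then gave the 4 arrays one common distribution. Differences are called measured when both arrays of a pair passed the limit. When only 1 passed, the difference is a bound against the other array's floor, given as at least a certain fold. No pair of arrays has a replicate check or a p-value, and fewer cells of a type and less RNA per cell cannot be told apart. Vimentin (VIM) and CD44 were above background in all populations, while KRT19 and CDH1 were in none. The probe of NES (nestin) passed the limit on no array. It read -4 in Nestin/GFP (+), 20 in Nestin/GFP (-), 5 in Oct4/GFP (+) and 2 in Oct4/GFP (-) cells. SOX2 and NANOG, which were not used for the sort, did not pass on any array either. No probe used here is named for POU5F1 (Oct4). Markers of blood cells, fibroblasts and endothelium passed it on at most 2 arrays, with intensities of 26 or less. The 90th percentile of intensity was 27 for Oct4/GFP (-) cells, against 54.3 to 112 elsewhere.

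Of the 14 probes, 11 were above background on at least 1 array, against 41.2% of all probes. The members were chosen with earlier results of these data known, so this excess is no result about the pathway. A probe each of BMPR1A, SMAD1, ID2 and ID3, 4 in all, passed on every array. ID1 and the second probe of ID2 passed on 3 arrays, BMPR2 on 2, and ACVR1, SMAD4, SMAD5 and MSX2 on 1 each. Where a gene passes on 1 array only, a bound can put it higher there but never lower, so its direction is no separate result. A further probe each of BMPR1A, SMAD1 and ID3 passed nowhere. By population, 9 probes passed in Nestin/GFP (+) cells, 8 in Nestin/GFP (-), 6 in Oct4/GFP (+) and 5 in Oct4/GFP (-) cells. Of all probes, 26.3%, 29.1%, 27.9% and 19.5% passed, in the same order.

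**Figure D1:**
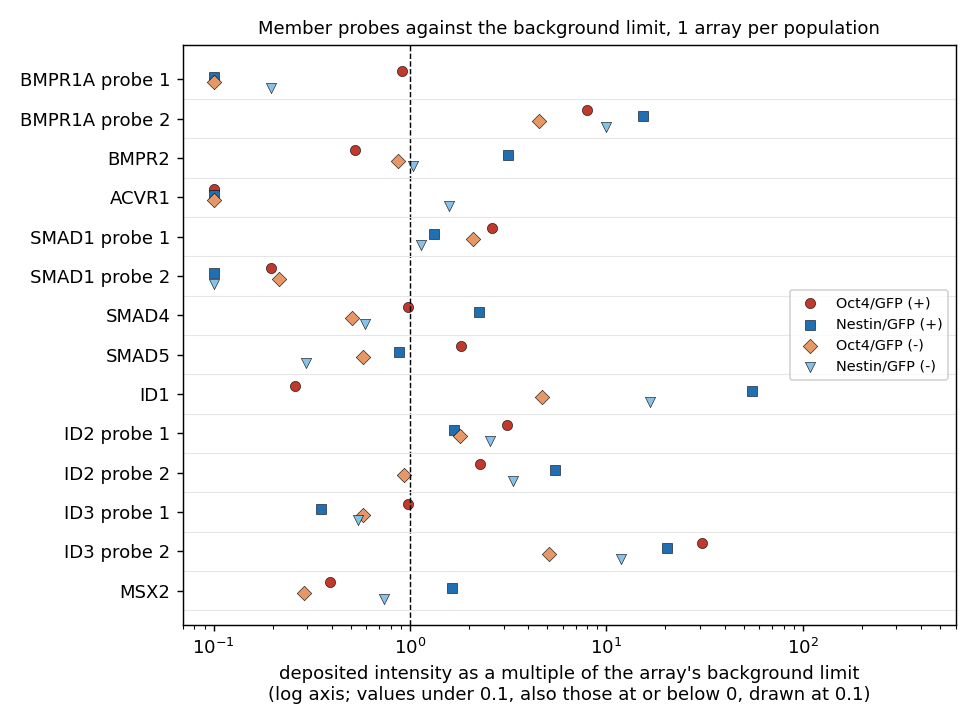
Deposited intensity of each of the 14 probes in the 4 populations (points), as a multiple of the array's background limit on a log axis, with the limit at the dashed line. The ID1 probe runs from 0.26 times the limit in Oct4/GFP (+) cells to 55.3 times the limit in Nestin/GFP (+) cells, while ACVR1, SMAD4, SMAD5 and MSX2 each pass it in 1 population.

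The type I receptor BMPR1A was above background in all 4 populations, at nearly the same normalized level. Its second probe (PH_hs_0033664) had intensities of 122 and 63 in the GFP (+) and GFP (-) cells of the Oct4 line, and of 349 and 202 in those of the Nestin line. Normalized, these became 179 and 193 in the Oct4 line and 201 and 157 in the Nestin line, so that no pair compared was more than 1.28-fold apart. The log2 difference, Oct4 minus Nestin, was -0.17 for the GFP (+) and 0.29 for the GFP (-) cells. GFP (+) minus GFP (-) gave -0.10 in the Oct4 line and 0.36 in the Nestin line. This evenness holds after normalization only. Without scaling BMPR1A was lower in the Oct4 cells, by -1.52 in GFP (+) and -1.68 in GFP (-) cells, where the median of all measured probes was -0.93 and -1.67. The first BMPR1A probe (PH_hs_0027543) had 14 and 1 in the Oct4 line and -8 and 4 in the Nestin line and passed no limit.

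The type II receptor BMPR2 was brightest in Nestin/GFP (+) cells. Its probe (PH_hs_0003544) read 72 there and 21 in Nestin/GFP (-) cells, just above the limit of 20.3, against 8 and 12 in the GFP (+) and GFP (-) cells of the Oct4 line. BMPR2 was 2.89-fold higher with GFP than without in the Nestin line. Oct4/GFP (+) cells were at least 2.72-fold below Nestin/GFP (+) cells. Of the other settings of scaling and background limit that gave a value, the first stayed past 2-fold in 6 of 8 and the second in 5 of 7. ACVR1 (PH_hs_0009056) was above background in Nestin/GFP (-) cells only, with an intensity of 32 against 2 in the GFP (+) cells of that line and -2 in both Oct4 populations. Its bound of 1.34-fold within the Nestin line did not reach 2-fold.

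SMAD1 was higher in the Oct4 than in the Nestin cells in both GFP states, which rest on separate arrays. Its first probe (PH_hs_0024460) was dim, at 40 and 29 in the GFP (+) and GFP (-) cells of the Oct4 line and 30 and 23 in the Nestin line. Normalized values were 52.5 and 78.0 in the Oct4 line and 23.2 and 17.8 in the Nestin line. The Oct4 cells were 2.26-fold higher among the GFP (+) and 4.39-fold higher among the GFP (-) populations. The direction was the same in every other setting with a value, but the difference stayed past 2-fold in only 3 of 7 for the GFP (+) and 5 of 8 for the GFP (-) cells. The second SMAD1 probe (PH_hs_0032859), between 0 and 3 on all arrays, gave no value to set beside it.

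SMAD4 (PH_hs_0004380), the common partner Smad, was above background in Nestin/GFP (+) cells only, with 51 against 12 in Nestin/GFP (-), 15 in Oct4/GFP (+) and 7 in Oct4/GFP (-) cells. It was at least 2.15-fold higher with GFP than without in the Nestin line, past 2-fold in 5 of 8 other settings. Oct4/GFP (+) cells were at least 2.03-fold lower than Nestin/GFP (+) cells, past 2-fold in 3 of 7. SMAD5 (PH_hs_0022793), which like SMAD1 is phosphorylated by the type I receptors, passed the limit in Oct4/GFP (+) cells only. It read 28 there, 8 in Oct4/GFP (-), 20 in Nestin/GFP (+) and 6 in Nestin/GFP (-) cells, and its bound between the GFP (+) populations was 1.85-fold.

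ID1, ID2 and ID3 are direct targets of the BMP Smads, and the 250 bases before their start sites are shown because ID1 has the largest differences among the members and ID2 and ID3 belong to its family. The sequences are from RefSeq on GRCh38.p14, 5′ to 3′ on the gene's strand, at chr20:31605039-31605288 (+) for ID1, chr2:8681806-8682055 (+) for ID2 and chr1:23559502-23559751 (-) for ID3. Capitals mark GTCT, the core of a Smad-binding element, or AGAC, the same letters on the other strand.
ID1: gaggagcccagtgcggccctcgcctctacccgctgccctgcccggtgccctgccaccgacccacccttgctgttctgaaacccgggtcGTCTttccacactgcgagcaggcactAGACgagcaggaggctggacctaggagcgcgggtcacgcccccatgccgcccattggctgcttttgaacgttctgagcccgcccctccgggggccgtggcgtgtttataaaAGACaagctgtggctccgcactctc
ID2: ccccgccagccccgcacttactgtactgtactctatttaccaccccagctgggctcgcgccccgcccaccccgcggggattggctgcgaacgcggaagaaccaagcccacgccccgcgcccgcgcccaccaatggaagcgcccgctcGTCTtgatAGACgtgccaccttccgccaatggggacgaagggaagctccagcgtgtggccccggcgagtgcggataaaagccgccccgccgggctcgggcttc
ID3: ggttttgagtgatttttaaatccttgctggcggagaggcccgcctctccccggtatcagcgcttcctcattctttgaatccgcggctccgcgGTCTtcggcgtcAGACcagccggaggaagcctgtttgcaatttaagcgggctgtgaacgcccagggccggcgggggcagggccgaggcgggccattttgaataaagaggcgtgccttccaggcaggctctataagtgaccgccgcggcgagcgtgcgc
In the ID1 window the letters stand 162, 136 and 25 bases before the start, in ID2 103 and 95 bases and in ID3 158 and 146 bases before it. They are common, since 77.5% of 35116 windows of this length hold them at least 1 time. GGCGCC, a GC-rich motif of BMP-activated Smads, is in none of the ID windows and in 16.4% of all, and TATAA, on either strand, is in those of ID1 and ID3 and in 18.9% of all. These matches describe the sequence, and no binding was measured.

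ID1 was bright in Nestin/GFP (+) cells and under the background limit in Oct4/GFP (+) cells. Its single probe (PH_hs_0024850) had intensities of 1254 and 339 in the GFP (+) and GFP (-) cells of the Nestin line, and of 4 and 65 in those of the Oct4 line. The normalized values above background were 732.5 and 266 in the Nestin line and 200.25 in Oct4/GFP (-) cells. Within the Nestin line ID1 was 2.75-fold higher in GFP (+) cells, while within the Oct4 line it was at least 11.6-fold lower in GFP (+) cells. Oct4/GFP (+) cells were at least 42.5-fold lower than Nestin/GFP (+) cells. Each of these 3 differences stayed past 2-fold in every other setting of scaling or background limit, 9 for the first and 8 for the others. Among the GFP (-) populations ID1 was 1.33-fold lower in the Oct4 line, and only 2 of 9 settings, no scaling and median centring, put it past 2-fold lower. Of 964 probes bright elsewhere (a normalized intensity of at least 200 on each of the other arrays), 60 (6.22%) were over 8-fold lower in Oct4/GFP (+) cells, and ID1 is one of them. The same count was 2 of 914 for Oct4/GFP (-), 1 of 890 for Nestin/GFP (+) and 0 of 894 for Nestin/GFP (-) cells. CD44, a marker of the line, was low there as well, with normalized intensities of 23.5 in Oct4/GFP (+), 391.5 in Nestin/GFP (+), 259 in Oct4/GFP (-) and 277.25 in Nestin/GFP (-) cells. VIM, also a marker, was lowest in Oct4/GFP (+) cells at 393.5, against 451.5 to 907.25. The part of this in the ID1 value was not tested, and no other ID1 probe is named here.

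ID3 was highest in Oct4/GFP (+) cells. Its second probe (PH_hs_0035462) had intensities of 471 and 71 in the GFP (+) and GFP (-) cells of the Oct4 line and 463 and 241 in the Nestin line. After normalization these were 656 and 221 in the Oct4 line and 268 and 192 in the Nestin line. Within the Oct4 line ID3 was 2.97-fold higher in GFP (+) cells, past 2-fold in all 8 other settings. Oct4/GFP (+) cells were also 2.45-fold above Nestin/GFP (+) cells, past 2-fold in 6 of 8 other settings. The deposited intensities of that pair were nearly equal, with a log2 difference of 0.02, but 471 was at the 98.7th percentile of its array and 463 at the 96.8th. Within the Nestin line ID3 was 1.40-fold higher in GFP (+) cells, and among the GFP (-) populations 1.15-fold higher in the Oct4 line, neither past 2-fold. The latter turned to -1.76 on the log2 scale without scaling, -1.18 with median centring and -0.02 when centred on the probes that passed the limit everywhere. The first ID3 probe (PH_hs_0004434), at 15 and 8 in the Oct4 line and 8 and 11 in the Nestin line, passed no limit. Within the Oct4 line ID3 was thus past 2-fold higher, and ID1 past 2-fold lower, in GFP (+) cells.

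**Figure D2:**
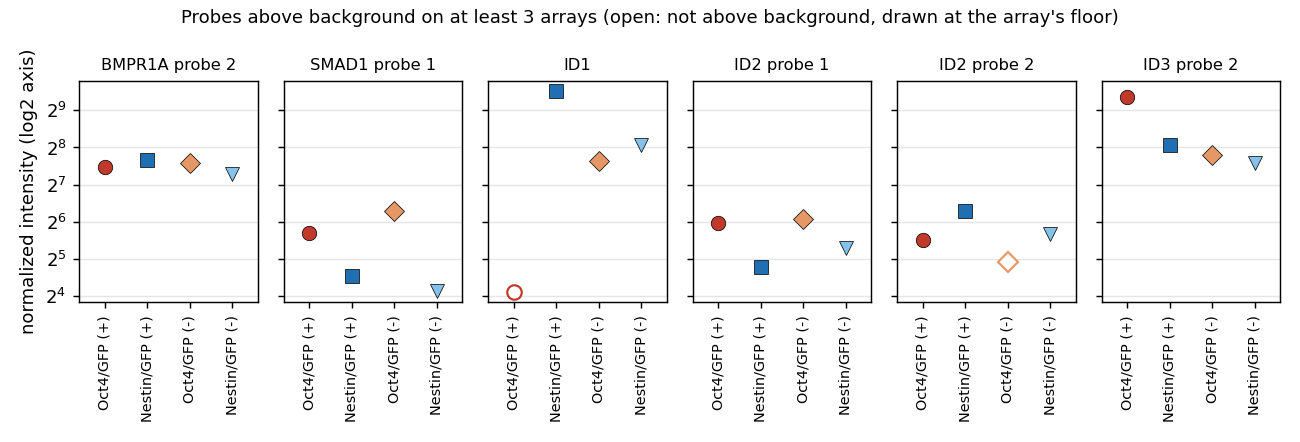
Normalized intensity (log2 axis) in the 4 populations for the 6 probes above background on at least 3 arrays, 1 point per array. Open symbols did not pass the limit and stand at the array's floor. BMPR1A is level, ID1 falls from 732.5 in Nestin/GFP (+) cells to the floor in Oct4/GFP (+) cells, and ID3 peaks at 656 in Oct4/GFP (+) cells.

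The probes of ID2 went in opposite directions between the reporters. The first (PH_hs_0029349) had intensities of 48 and 25 in the GFP (+) and GFP (-) cells of the Oct4 line and 38 and 52 in the Nestin line. Normalized, it was 2.25-fold higher in Oct4/GFP (+) cells compared with Nestin/GFP (+) cells, past 2-fold in 4 of 7 other settings. The second (PH_hs_0030526) had 35 and 13 in the Oct4 line and 125 and 68 in the Nestin line, and was 1.74-fold lower in that comparison. Among the GFP (-) populations the first was 1.70-fold higher and the second at least 1.68-fold lower in the Oct4 line, so each probe kept its direction on separate arrays. The first turned to -1.06 without scaling and -0.47 with median centring. ID2 thus has no one direction. Over 276 genes with several measured probes, the SD between the probes of a gene was 0.93 log2 in the comparison of GFP (+) populations. The SD of all measured probes was 0.985 there. How many genes have probes as far apart as those of ID2 was not counted. Between the probes of a gene, the SD was 0.74 over 203 genes for the GFP (-) populations. It was 0.85 over 180 within the Oct4 line and 0.54 over 361 within the Nestin line. The GFP (+) differences of SMAD1, ID2 and ID3, at 1.18, 1.17 and 1.29, are little larger than the SD of 0.93, while the bound of ID1 is -5.41. MSX2 (PH_hs_0004979), a homeobox gene that BMPs induce in many embryonic tissues, was above background in Nestin/GFP (+) cells only, at 37 against 15 in Nestin/GFP (-), 6 in Oct4/GFP (+) and 4 in Oct4/GFP (-) cells. Its bounds of 1.59-fold against Oct4/GFP (+) and 1.69-fold against Nestin/GFP (-) cells did not reach 2-fold.

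Probes past 2-fold were then counted among the members and on the whole array. The counts are of probes above the limit on at least 1 array of the pair, also where the bound gave no fold. Between the GFP (+) populations, 3 of 10 such member probes were higher in the Oct4 line (SMAD1, ID2 and ID3). Another 3 were lower there (BMPR2, SMAD4 and ID1). Of all 10830 such probes, 14.9% were higher and 14.6% lower. The 3 lower members are all bounds. Of the 5 members measured on both arrays 3 were higher and 0 lower, against 14.9% and 11.9% of 5962. Between the GFP (-) populations, 1 of 8 was higher in the Oct4 line (SMAD1) and 0 lower, against 18.2% and 9.16%, or 18.3% and 9.63% of probes measured on both arrays. Within the Oct4 line, 1 of 7 was higher in GFP (+) cells (ID3) and 1 lower (ID1), against 8.39% and 16%, or 8.17% and 13.9% of measured probes. Within the Nestin line, 3 of 10 were higher in GFP (+) cells (BMPR2, SMAD4 and ID1) and 0 lower, against 6.55% and 5.75%, or 6.01% and 5.25% of measured probes. The median log2 difference of the measured members was 1.17 between the GFP (+) and 0.29 between the GFP (-) populations, -0.10 within the Oct4 line and 0.48 within the Nestin line. For all measured probes it was 0.09, 0.18, -0.02 and 0.02. These medians leave out the bounds. With bounds of at least 1 included at their value, the members' median turned to -0.42 over 10 probes between the GFP (+) populations, and was 0.25 over 6 between the GFP (-) populations, -0.10 over 7 within the Oct4 line and 0.56 over 10 within the Nestin line. For all probes it was then 0.09, 0.08, 0.02 and 0.01. Each population enters 2 of these comparisons, so only the comparison of GFP (+) and that of GFP (-) populations, or the Oct4 and the Nestin line, share no array.

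**Figure D3:**
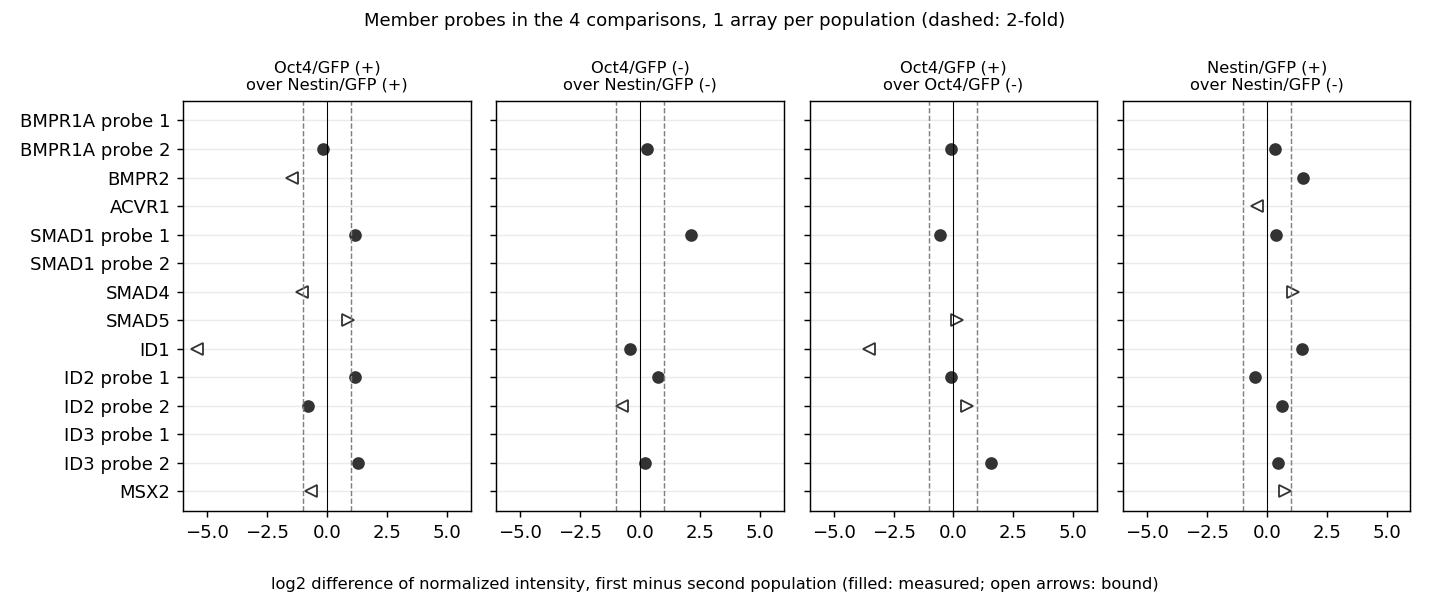
Log2 difference of normalized intensity for each member probe in the 4 comparisons, first minus second population. Filled points are measured on both arrays, open arrows are bounds and dashed lines mark 2-fold. ID1 lies at -5.41 and -3.54 in the comparisons that hold Oct4/GFP (+) cells, and SMAD1 lies past 2-fold to the right in both reporter comparisons.

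The direction of many differences depends on the scaling of the arrays. Unscaled, the all-probe median moved to -0.93 and -1.67 for Oct4 against Nestin cells (GFP (+) and GFP (-)), to 1.03 within the Oct4 line and to 0.29 within the Nestin line. All 6 members then past 2-fold between the GFP (-) populations were lower in the Oct4 line. The split of all probes into higher and lower between the GFP (+) populations was 1619 and 1582 after quantile normalization, 316 and 4108 unscaled, 949 and 2476 with median centring, and 2543 and 1211 with centring on the probes that passed the limit everywhere. For the GFP (-) populations it was 1852 and 932, then 21 and 6282, 152 and 4199, and 1958 and 835 in the same order, and 894 and 1852 after a loess. In the Oct4 line this split was 839 and 1604, then 3780 and 240, 2982 and 331, and 570 and 1477, and 1385 and 1023 after a loess. In the Nestin line this split was 677 and 595, then 1257 and 530, 962 and 719, and 502 and 1198.

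**Figure D4:**
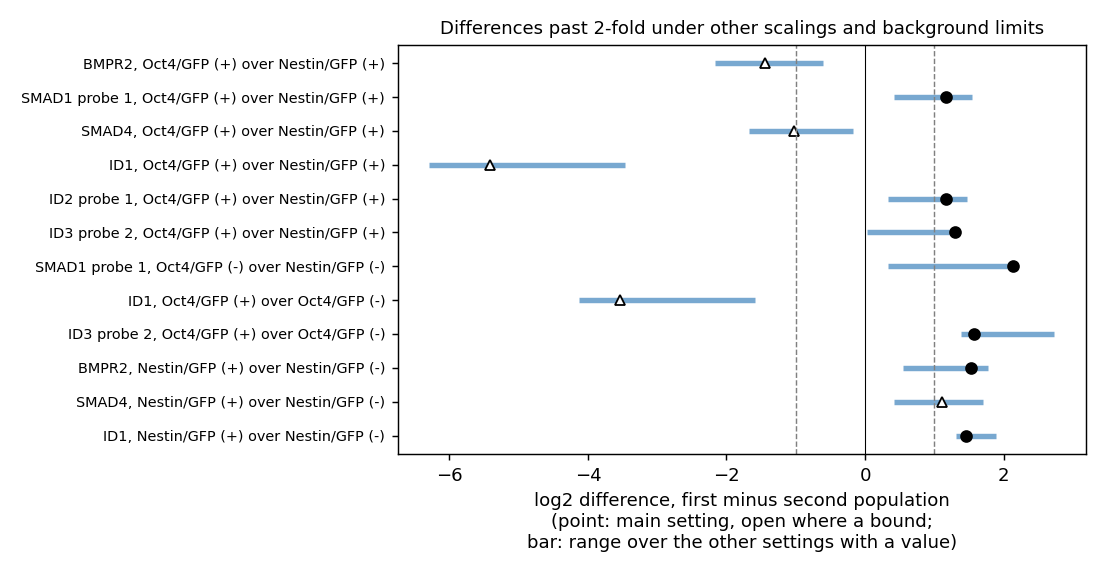
Log2 differences past 2-fold (points, open where a bound) and their range over the other scalings and background limits that gave a value (bars), with 2-fold at the dashed lines. The bars of ID1 in 3 comparisons and of ID3 within the Oct4 line stay beyond 2-fold, and those of BMPR2, SMAD1, SMAD4, ID2 and of ID3 between the GFP (+) populations cross it.

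Taking reporter and GFP state as additive terms, the 4 arrays allow 1 fit with an error, on 1 residual degree of freedom. That residual is the departure of the 4 values from additivity, not a spread between replicate cultures. The errors also draw on the other probes fitted, which added 7.57 prior degrees of freedom. By limma, none (0) of the 3980 probes that passed the limit everywhere reached an adjusted p of 0.05 for the reporter, and 625 (15.7%) did so unadjusted. SMAD1 was higher in the Oct4 than in the Nestin cells by 1.66 ± 0.47 (log2, SE; adjusted p = 0.234 in limma, higher in both GFP states). The first probe of ID2 differed by 0.97 ± 0.45 (limma, adjusted p = 0.339), ID3 by 0.75 ± 0.48 (adjusted p = 0.471) and BMPR1A by 0.06 ± 0.45 (adjusted p = 0.954). For GFP state, ID3 was 1.03 ± 0.48 higher in GFP (+) cells (limma, adjusted p = 1). There 0 probes passed after adjustment and 130 (3.27%) before it. The fit assumes the same reporter difference for both GFP states. ID1 was left out of it because it was under the limit in Oct4/GFP (+) cells. The alternative fit with an offset of 50 and no limit took all 30968 probes, and its value for ID1 is not given here.

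The other genes of the BMP pathway passed the limit at near the share of all probes. Of 78 listed symbols for ligands, receptors, antagonists, regulators and targets, 71 have a probe named here, with 81 probes. HFE2 and HJV, symbols of the same gene, are both listed, and only HFE2 has a probe under its name. Of the 81 probes, 30 (37.0%) were above background on at least 1 array, against 41.2% of all probes. The counts that follow are of probes above the limit on at least 1 array of the pair. Between the GFP (+) populations, 4 of 24 were higher and 2 lower in the Oct4 line, where 14.9% and 14.6% of all such probes were. TGFBR2, the type II receptor of TGF-beta, read 77 against 32 and was higher in Oct4/GFP (+) cells by 2.19 on the log2 scale. GREM1, a secreted BMP antagonist, read 60 against 24 and was higher by 2.02, and its other probe, at 38 against 8, was higher by at least 1.43. Between the GFP (-) populations, 6 of 23 were higher and 1 lower in the Oct4 line, against 18.2% and 9.16% of all probes. FSTL1, a secreted follistatin-like glycoprotein, read 22 against 496 and differed by -2.73. LEMD3, an inner nuclear membrane protein that binds Smads, was higher by 1.65 with intensities of 37 against 43. FSTL3, an activin-binding protein, was higher by 1.52 with 21 against 25, and HES1, a Notch target, by 1.04 with 1123 against 1922. The deposited intensities of LEMD3, FSTL3 and HES1 were lower in the Oct4 line, so their direction is that of the normalized scale. GFP (+) cells had 4 of 23 higher and 3 lower within the Oct4 line (8.39% and 16% of all probes), and 1 of 24 higher and 2 lower within the Nestin line (6.55% and 5.75%). Among 13 probes of BMP ligands, only BMP4, at 21 in Nestin/GFP (-) cells, and BMP10, at 33 in Oct4/GFP (+) cells, passed the limit.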

How the data were processed

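Total RNA of each population (1 µg) was labeled with Cy3 and hybridized to a Phalanx Human OneArray. The authors deposited 1 table of background-subtracted intensity values. Extraction software, scaling and filters are not stated in the sources used here. In the platform annotation 17397 probes have 1 gene symbol and 13571 are unnamed. All 10 member symbols are current in RefSeq. After quantile normalization, values not above the limit were set to the array's floor, its lowest normalized value above the limit (17.25 and 30.5 for the GFP (+) and GFP (-) cells of the Oct4 line, 18.5 and 16.25 for the Nestin line), and log2 was taken. No fold is given for bounds under 1. A probe was past 2-fold when its log2 difference lay above 1 or below -1.

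All member probes are named. Pathway genes are named where measured on both arrays of a reporter comparison and past 2-fold, up to 3 each way. The members and lists were chosen with earlier results of these data known. The alternatives were 4 other scalings (none, median, common probes, and a loess with span 0.3), other limits (2, 5 or 10 noise SD, or none with 50 added before log2), counting only measured probes, genes or brightest probes in place of probes, and thresholds of 1.5-fold and 4-fold. Normalization without Oct4/GFP (+), and leaving out probes over 8-fold lower on 1 array, were added after the data were seen. The additive fit used limma 3.58.1 in R 4.3.3 with Benjamini-Hochberg adjustment over all probes fitted. It was also run on simulated data with the same reporter difference in both GFP states. That run therefore does not check the assumption of the fit. The remaining steps ran in Python 3.11.15 (numpy 2.4.6, statsmodels 0.14.6, pandas 2.3.3, matplotlib 3.10.9). The number of arrays limits the precision.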

Additional observations from a re-analysis of the deposited data

Results flagged for a closer look

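ID1 differed between GFP (+) and GFP (-) cells in opposite directions in the reporter lines. Within the Nestin line the log2 difference was 1.46, measured on both arrays. Within the Oct4 line it was -3.54 as a bound, since ID1 was under the limit in Oct4/GFP (+) cells. The difference between the lines was not tested, because each population has 1 array. Of 7586 probes above the limit on at least 1 array of each line, 155 (2.04%) were past 2-fold in opposite directions. The 7586 include probes whose bound gave no fold in a line. ID1 also belongs to the 60 of 964 bright probes that fell over 8-fold in Oct4/GFP (+) cells, and the part of this in its value was not tested.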

How the results depend on the processing

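No paired analysis was possible because the groups share only 1 replicate number, so a replicate block could not be fitted, and with 1 array per population no replicate could be left out. Of the counts recomputed under other settings, 51 moved by over 1.5 times and 69 did not. These counts add both directions, so a shift from higher to lower alone is not scored as a move. Between the GFP (+) populations, 3 members higher and 3 lower became 0 and 6 unscaled, and 0 and 4 with median centring. With common-probe centring they became 4 and 2. For the pathway list within the Oct4 line, 4 higher and 3 lower became 9 and 0 unscaled, and 8 and 0 with median centring. No member's log2 difference past 2-fold changed sign, whereas LEMD3, FSTL3 and HES1, higher in Oct4/GFP (-) cells after normalization, had lower deposited intensities there. For members past 2-fold between the GFP (+) populations, 6 became 3 at 5 noise SD, 2 at 10 noise SD, 2 with the offset of 50, 3 with measured probes only and 1 at 4-fold. Between the GFP (-) populations, 1 became 6 unscaled, 4 with median centring, 2 after the loess, 0 at 10 noise SD, 0 with the offset and 3 at 1.5-fold. Within the Oct4 line, 2 became 1 with measured probes only, 1 at 4-fold and 1 without the probes over 8-fold lower on 1 array, a loss of ID1. Within the Nestin line, 3 became 1 at 5 noise SD, 1 at 10 noise SD, 1 with the offset, 5 at 1.5-fold and 0 at 4-fold. For the pathway list between the GFP (+) populations, 6 became 2 at 5 noise SD, 1 at 10 noise SD, 1 with the offset, 2 with measured probes only, 11 at 1.5-fold and 2 at 4-fold. Between the GFP (-) populations, 7 became 11 unscaled, 4 after the loess, 3 at 5 noise SD, 2 at 10 noise SD, 2 with the offset, 4 with measured probes only and 1 at 4-fold. In the Oct4 line, 7 became 4 with common-probe centring, 11 at 2 noise SD, 3 at 5 noise SD, 0 at 10 noise SD, 1 with the offset, 3 with measured probes only, 12 at 1.5-fold and 0 at 4-fold. In the Nestin line, 3 became 5 with common-probe centring, 5 at 2 noise SD, 1 at 10 noise SD, 1 with the offset, 9 at 1.5-fold and 0 at 4-fold. The limma fit, with 0 probes past an adjusted p of 0.05 for the reporter, gave 1823 unscaled, 497 with median centring, 90 with common-probe centring, 26 at 5 noise SD and 2 at 10 noise SD. Stricter limits and the count of measured probes test fewer probes by construction, and for the scalings the cause was not tested. Signal over background limits most differences, since no member other than BMPR1A, ID1 and ID3 exceeded 5.51 times its background limit (ID2, second probe, Nestin/GFP (+) cells).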

Other observations

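HEY1, a transcriptional repressor that BMP and Notch signaling can induce, was brighter with GFP than without in both lines. Its probe, 1 of 81 on the pathway list, is described after its values were seen. It read 87 and 21 in the GFP (+) and GFP (-) cells of the Nestin line and 48 and 10 in the Oct4 line. HEY1 was higher in GFP (+) cells by 1.80 on the log2 scale within the Nestin line, measured on both arrays. Within the Oct4 line it was higher by at least 1.03, a bound just past 2-fold. Of all probes above the limit on at least 1 array of the pair, 6.55% were over 2-fold higher with GFP in the Nestin line. That share was 8.39% in the Oct4 line. The share higher in both lines was not counted, and HEY1 was not followed under the other settings.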
